A study of Homo sapiens with 12 samples.

Results

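Genes of the epithelial-mesenchymal transition (EMT) were followed through 12 RNA-seq libraries of Paclitaxel-treated and untreated breast cancer cells in a 3D matrix. The 10 members were 6 transcription factors (ZEB1, ZEB2, SNAI1, SNAI2, TCF4 and PRRX1) and 4 mesenchymal markers (CDH2, VIM, FN1 and SPARC). They were the rows of the deposited table of total reads whose Ensembl identifiers map to these symbols, 10 of 63568 genes. All libraries came from MDA-MB-231, an established line of triple negative breast cancer that carries a GFP label in its nuclei and was grown in droplets of Matrigel, a basement membrane gel. C1 was untreated and taken on day 2, and C2 was untreated and taken on day 4. The other 4 conditions received Paclitaxel, a drug that stabilises microtubules, on day 2 at 0.0005, 0.005, 0.05 or 0.5 μM, and were taken on day 4. This day of dosing is that of the labels, while the study's methods give a later day for the procedure that the RNA experiment repeated, so the time of exposure is uncertain. Each condition had 2 libraries, which the study's methods call biological replicates, and all of them are of 1 cell line with the genotype given as wild type.

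In EMT, epithelial cells lose their junctions and take on the shape, matrix and movement of mesenchymal cells. SNAI1, SNAI2, ZEB1 and ZEB2 are zinc finger repressors that bind E-box motifs in the promoters of epithelial genes such as CDH1, which encodes E-cadherin. TCF4 is a basic helix-loop-helix factor that also binds E-boxes, and PRRX1 is a homeobox factor. VIM encodes the intermediate filament vimentin, FN1 the matrix protein fibronectin, SPARC a collagen-binding matrix glycoprotein, and CDH2 N-cadherin, the junction protein that often takes the place of E-cadherin. MDA-MB-231 is widely used as a line with a mesenchymal phenotype.

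The start regions of the 3 members whose letters can be set beside the levels below are shown, FN1 and SPARC because their levels moved most with dose among the markers, and ZEB1 because it holds the E-box that SNAI1, SNAI2 and the ZEB factors bind. Each runs 5′ to 3′ on the strand of its gene, from 250 bases before to 50 bases after the start (RefSeq, GRCh38.p14), with CANNTG (any E-box) and TGACGTCA, a cAMP response element, in capitals. The FN1 window is chr2:215436019-215436318 (minus strand), the SPARC window chr5:151686866-151687165 (minus strand), and the ZEB1 window chr10:31318966-31319265 (plus strand), 1 of several starts of that gene.
FN1: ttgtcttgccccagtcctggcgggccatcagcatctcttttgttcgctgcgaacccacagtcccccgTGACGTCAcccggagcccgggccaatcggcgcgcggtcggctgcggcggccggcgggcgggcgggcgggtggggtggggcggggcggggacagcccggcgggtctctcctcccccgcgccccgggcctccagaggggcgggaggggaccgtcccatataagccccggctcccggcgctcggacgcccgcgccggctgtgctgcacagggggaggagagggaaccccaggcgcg
SPARC: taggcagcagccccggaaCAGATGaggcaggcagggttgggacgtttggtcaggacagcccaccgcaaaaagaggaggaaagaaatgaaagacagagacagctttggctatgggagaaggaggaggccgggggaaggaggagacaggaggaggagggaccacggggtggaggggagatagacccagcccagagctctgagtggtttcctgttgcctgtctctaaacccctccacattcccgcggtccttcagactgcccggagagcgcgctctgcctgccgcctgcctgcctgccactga
ZEB1: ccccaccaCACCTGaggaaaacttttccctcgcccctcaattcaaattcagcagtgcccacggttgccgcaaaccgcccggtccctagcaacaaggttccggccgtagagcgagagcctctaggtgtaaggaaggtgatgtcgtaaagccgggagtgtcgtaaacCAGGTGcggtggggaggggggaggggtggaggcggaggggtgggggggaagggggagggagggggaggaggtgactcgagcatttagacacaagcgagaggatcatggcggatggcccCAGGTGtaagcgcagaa
Windows were found for 8 of the 10 members. On either strand, CAGGTG or CACCTG stood in 20.6% of the 35114 windows of all genes, CANNTG, which includes them, in 68.7%, and TGACGTCA in 1.85%. Of the 7 ZEB1 windows, 2 held CAGGTG or CACCTG and 5 did not, and the one shown was chosen as that with the most. It held 3, with first bases at -242, -85 and 33 from the start. FN1 held no CANNTG and 1 TGACGTCA, beginning at -183, and SPARC held 1 CANNTG, beginning at -232. TGACGTCA was looked up after the FN1 levels had been seen, and a match is a description of the letters, not evidence of binding.

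The libraries held 38380629 to 79169121 counted reads. The 2 C1 libraries stood apart from each other: the median gene differed between them by 0.42 on the log2 scale, against 0.0722 to 0.183 for the pairs of the other conditions, and the second C1 library had the fewest reads and the highest mitochondrial share (7.74%, against 3.73% at the lowest). Genes with at least 1 count numbered 30608 to 33824 in untreated and 34591 to 39480 in treated libraries, without overlap. Marker mRNA was set beside the triple negative label: ESR1 and PGR stayed at or under 0.46 and 0.0867 CPM (reads per gene scaled to library size), and ERBB2 lay between 26.6 and 52.4 CPM. Receptor protein was not measured here. Of epithelial genes, CDH1 stayed at or under 0.201 CPM, while EPCAM lay between 4.37 and 6.77 and CLDN4 between 32.4 and 53.2 CPM. CD44, AXL, MSN, NT5E, CAV1 and ANXA1, listed as high in lines of a mesenchymal phenotype, were each at 237 CPM or more in every library. In treated against untreated libraries 3 of these 6 fell and 0 rose (50% called, against 24.5% of all tested genes). Their summed level was 4120 to 4810 CPM in untreated and 3210 to 4190 in treated libraries. The CPM use TMM library sizes, and in bulk RNA fewer cells expressing a gene and less RNA per cell cannot be told apart.

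The level of the members spanned a wide range. Per kilobase of exon, the mean over 12 libraries was 204 CPM for VIM, 10.9 for FN1, 10.1 for ZEB1, 5.17 for SPARC, 4.88 for SNAI1, 3.90 for SNAI2, 0.965 for ZEB2, 0.837 for TCF4, 0.147 for PRRX1 and 0.0902 for CDH2. VIM stood above 99.2% of tested genes on this scale and CDH2 above 11.6%. The range over libraries of FN1 overlapped with those of ZEB1, SPARC and SNAI1, as did those of SPARC, SNAI1 and SNAI2 with each other, those of ZEB2 and TCF4, and those of PRRX1 and CDH2. With the length of the canonical transcript, SNAI1 and SNAI2 changed places, as did ZEB2 and TCF4. TWIST1, another EMT transcription factor, was listed at 0 counts in all 12 libraries.

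**Figure D1:**
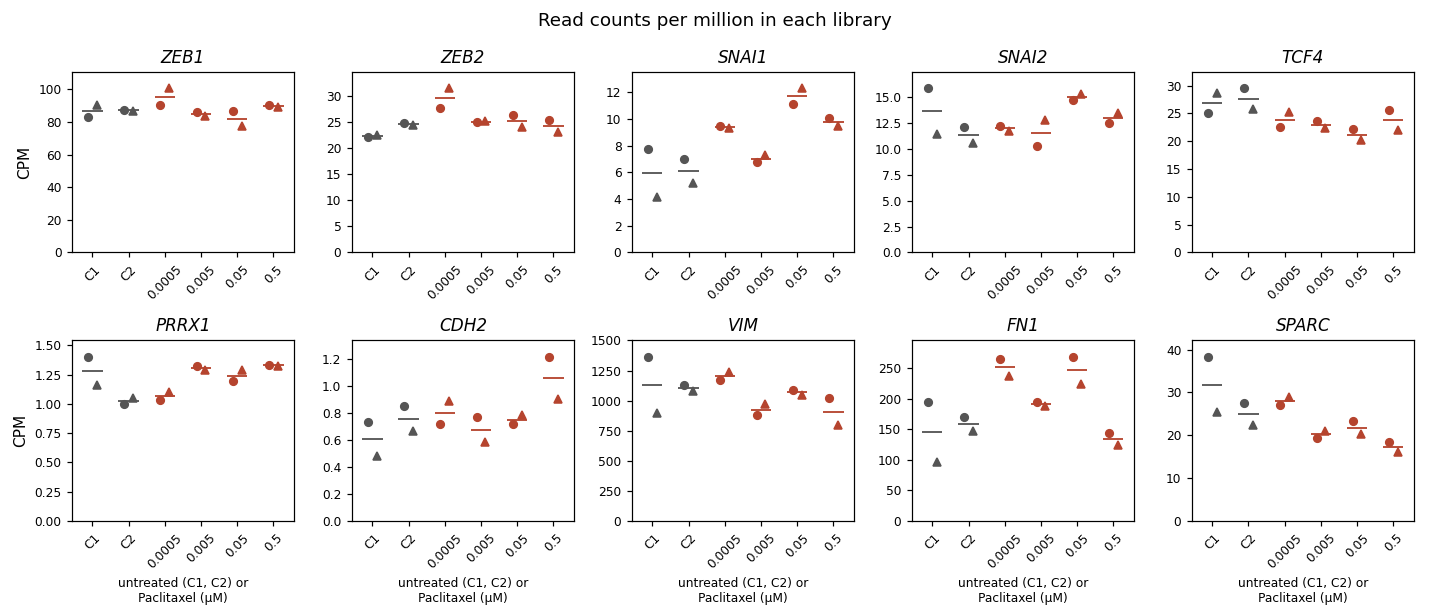
CPM (y axis, from 0) of each member in each library by condition (x axis), with circles for replicate 1, triangles for replicate 2 and a bar at their mean; grey is untreated and red is Paclitaxel. SNAI1 was at 11.1 and 12.3 CPM at 0.05 μM against 6.96 and 5.17 in C2, and FN1 was high at 0.0005 and 0.05 μM and low at 0.5 μM.

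SNAI1 was the member that changed most clearly. This factor (chr20:48599517-48605423, plus strand, GRCh37) was at 7.73 and 4.15 CPM in C1 and at 6.96 and 5.17 in C2. From the lowest to the highest dose it was at 9.49 and 9.32, 6.75 and 7.27, 11.1 and 12.3, and 10.1 and 9.49 CPM. The 6 libraries of the other doses lay above all 4 untreated libraries, and those of 0.005 μM lay among them. At 0.05 μM SNAI1 was 1.93-fold higher than in C2 (log2 fold change 0.95, SE 0.24, n = 2 against 2, edgeR quasi-likelihood adjusted p = 0.0312). With all 8 treated libraries set against the 4 untreated, it rose 1.58-fold (log2 0.66, SE 0.18, edgeR adjusted p = 0.0123). The exact permutation test of log2 CPM over all splits into 8 and 4 gave two-sided p = 0.0101, where the smallest possible is 0.00202. Both tests treat the 12 libraries as independent, while they were 6 conditions of 2 and C1 also differed in day, so these p-values can be too small. Over the 12 libraries SNAI1 also went with the number of genes with a count (r = 0.609) and total reads (0.541) and against the mitochondrial share (-0.648), and their part in its rise was not tested. Since C1 was taken on day 2, the treated libraries were also set against C2 alone, where SNAI1 was higher by log2 0.65 (SE 0.20, edgeR adjusted p = 0.0361). The call over all treated libraries held in each of the 12 fits that left out 1 library (edgeR adjusted p 0.00707 to 0.0404). The call at 0.05 μM was lost in 9 of 12 such fits, with an edgeR adjusted p of up to 0.202, and kept in 3.

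SNAI2, the SNAI1 relative (chr8:49830157-49834299, minus strand, GRCh37), was at 15.9 and 11.5 CPM in C1, 12.2 and 10.6 in C2, 12.2 and 11.8 at 0.0005 μM, 10.3 and 12.9 at 0.005 μM, 14.8 and 15.4 at 0.05 μM, and 12.5 and 13.5 at 0.5 μM. Both libraries at 0.05 μM were above both of C2 and below the higher C1 library. Its estimate there was 0.40 on the log2 scale (SE 0.18, edgeR adjusted p = 0.186), short of the threshold.

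ZEB1 (chr10:31607424-31818742, plus strand) varied least of all members, with the highest library 1.30 times the lowest. It was at 82.7 and 90.4 CPM in C1, 87.3 and 87.0 in C2, 90.3 and 100.6 at 0.0005 μM, 86.0 and 83.6 at 0.005 μM, 86.4 and 77.3 at 0.05 μM and 90.2 and 89.1 at 0.5 μM. For treated against untreated libraries the 95% interval of its log2 difference ran from -0.15 to 0.20. ZEB2 (chr2:145121931-145278624, minus strand) ranged from 22.1 to 31.5 CPM, highest in the libraries of 0.0005 μM at 27.8 and 31.5, against 24.9 and 24.5 in C2, and did not pass the test (log2 0.26, SE 0.13, edgeR adjusted p = 0.334). For treated against untreated libraries the log2 difference of ZEB2 was 0.16 (SE 0.092, edgeR adjusted p = 0.227). Over the alternatives other than leaving out 1 library it was 0.087 to 0.28, highest with upper-quartile scaling, and 2 of them called it.

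TCF4 (chr18:52889416-53332018, minus strand) had its highest libraries among the untreated. It was at 25.1 and 28.8 CPM in C1, 29.5 and 25.8 in C2, 22.6 and 25.2 at 0.0005 μM, 23.7 and 22.3 at 0.005 μM, 22.1 and 20.2 at 0.05 μM and 25.7 and 22.1 at 0.5 μM. The groups overlapped only through the first library at 0.5 μM and the second at 0.0005 μM, which lay close to the lowest untreated library. The log2 difference of treated against untreated was -0.24 (SE 0.088, 95% interval -0.42 to -0.053), which missed the threshold in edgeR (adjusted p = 0.0575). The exact permutation test of this gene alone gave an unadjusted two-sided p = 0.00606. As for SNAI1, that test takes the libraries as freely exchangeable across conditions, so its p can be too small. The size of the log2 difference depended on the scaling: it was -0.12 both with total counts only (edgeR adjusted p = 0.34) and with upper-quartile scaling (edgeR adjusted p = 0.37). It passed with RLE scaling (log2 -0.25, edgeR adjusted p = 0.0459), with DESeq2 (log2 -0.27, adjusted p = 0.022) and in 3 of 12 fits that left out 1 library. TCF4 also had the strongest relation to the number of genes with a count (r = -0.828 over 12 libraries, a description), and the part of library composition in its level was not tested.

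PRRX1 (chr1:170631869-170708562, plus strand) was low, at 0.999 to 1.41 CPM, and rested on 39 to 112 reads a library. C1 had 1.41 and 1.16 CPM, the first being the highest of all libraries, C2 had 0.999 and 1.05, those of 0.0005 μM had 1.04 and 1.11, and those of the higher doses 1.19 to 1.34. No comparison of PRRX1 passed the test, and at 0.5 μM the log2 difference was 0.38 with a 95% interval of -0.080 to 0.84.

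**Figure D2:**
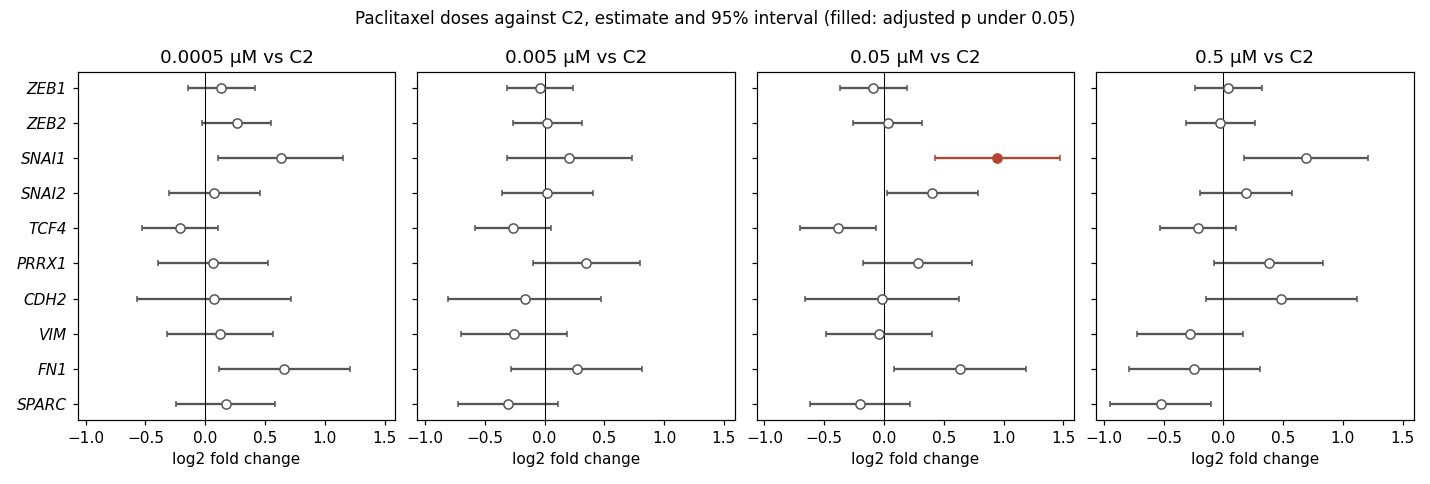
log2 fold change (x axis) of each member (y axis) at each Paclitaxel dose against C2, with 95% intervals and filled points for an adjusted p under 0.05. The 4 panels share the 2 C2 libraries, and SNAI1 at 0.05 μM (0.95) is the only filled point.

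FN1, fibronectin (chr2:216225163-216300796, minus strand), was the most variable marker. It was at 195 and 96.5 CPM in C1 and at 170 and 147 in C2. At 0.0005 μM it was at 265 and 237 CPM, at 0.005 μM at 195 and 188, at 0.05 μM at 269 and 224, and at 0.5 μM at 143 and 124. The libraries of the 3 lower doses were all above C2, those of 0.5 μM were both below it, and the C1 libraries lay on either side of C2. Against C2 the log2 difference was 0.66 at 0.0005 μM (SE 0.25, edgeR adjusted p = 0.206), 0.64 at 0.05 μM (SE 0.25, edgeR adjusted p = 0.148) and -0.25 at 0.5 μM (SE 0.25, edgeR adjusted p = 0.593), and none passed. Without both C1 libraries in the fit, a choice made after seeing the data, the SE was 0.13. FN1 then passed at 0.0005 μM (log2 0.67, edgeR adjusted p = 0.00348) and at 0.05 μM (log2 0.65, edgeR adjusted p = 0.00217). That fit also called more of all genes, 10.3% against 2.34% at 0.0005 μM and 19.2% against 8.32% at 0.05 μM. From 0.05 to 0.5 μM, a comparison chosen after its values were seen, the log2 difference of FN1 was -0.88 (SE 0.25, 95% interval -1.43 to -0.33), but with adjustment over all genes the edgeR adjusted p was 0.893. Without both C1 libraries it passed (log2 -0.90, SE 0.13, edgeR adjusted p = 0.0282), but there both the comparison and the fit were chosen after seeing the data. FN1 levels also went with total reads (r = 0.804) and against the mitochondrial share (r = -0.72) over the 12 libraries, and the part of depth was not tested.

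SPARC (chr5:151040657-151066536, minus strand) was lowest at the highest dose and had a negative slope on dose, but did not fall from 0.005 to 0.05 μM. It was at 38.4 and 25.3 CPM in C1, 27.4 and 22.4 in C2, 27.1 and 29.0 at 0.0005 μM, 19.4 and 21.0 at 0.005 μM, 23.2 and 20.2 at 0.05 μM and 18.5 and 16.2 at 0.5 μM. The libraries of 0.5 μM were below all others, and those of 0.0005 μM above those of every higher dose. Over the 8 treated libraries the slope was -0.20 on the log2 scale per 10-fold dose (SE 0.046, edgeR adjusted p = 0.0307). The call was kept in 4 of 8 fits that left out 1 treated library and lost in the other 4, those without either library at 0.0005 or at 0.5 μM (edgeR adjusted p up to 0.219). With scaling by total counts only the call was lost as well (edgeR adjusted p = 0.0794), as it was with replicate number as a term (edgeR adjusted p = 0.0548). Against C2 SPARC passed at no dose (at 0.5 μM log2 -0.53, SE 0.19, edgeR adjusted p = 0.129). Over the 12 libraries SPARC went against the number of genes with a count (r = -0.647), whose part in its level was not tested. The slope of FN1 was -0.22 on the log2 scale per 10-fold dose (SE 0.079, edgeR adjusted p = 0.147), short of the threshold. It passed with DESeq2 (adjusted p = 0.0294), with no filter beyond 1 count (edgeR adjusted p = 0.000526) and without the first library at 0.05 μM (edgeR adjusted p = 0.0239), the 1 of 8 fits leaving out a library that called it. Without the second library at 0.5 μM the slope was -0.15 (edgeR adjusted p = 0.471).

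VIM (chr10:17270240-17279592, plus strand) was the most abundant member, at 1366 and 894 CPM in C1, 1129 and 1078 in C2, 1169 and 1241 at 0.0005 μM, 879 and 972 at 0.005 μM, 1091 and 1049 at 0.05 μM, and 1019 and 797 at 0.5 μM. The C1 pair spanned nearly the full range, and no comparison passed (treated against untreated, log2 -0.11, 95% interval -0.40 to 0.18). An antisense transcript, VIM-AS1, overlaps 12.7% of its exon bases and was at 6.41 to 13.8 CPM, and strand is not stated for the counting, so reads from the overlap cannot be told apart. VIM-AS1 fell in treated libraries (log2 -0.45, SE 0.15, edgeR adjusted p = 0.0375). ZEB1-AS1, at 2.73 to 4.63 CPM, overlaps 4.58% of the ZEB1 exon bases in the same way. A second antisense gene, ENSG00000234961, shares 12% of the VIM exon bases. ZEB2 shares 11.3% with the pseudogene AC009951.1 on its own strand and 4.97% with ZEB2-AS1. Genes on the opposite strand also overlap SPARC (CLMAT3, 4.12%), SNAI2 (3.69%), CDH2 (3.58%) and TCF4 (0.669% and 0.223%). The levels of all these members carry that uncertainty. CDH2 (chr18:25512843-25757910, minus strand) rested on 16 to 81 reads a library. It was at 0.730 and 0.477 CPM in C1, 0.851 and 0.662 in C2, 0.718 and 0.884 at 0.0005 μM, 0.767 and 0.582 at 0.005 μM, 0.716 and 0.783 at 0.05 μM and 1.22 and 0.901 at 0.5 μM. Against C2 the log2 difference of CDH2 was 0.07, -0.17 and -0.02 at the 3 lower doses and 0.49 at 0.5 μM (95% interval -0.15 to 1.12), where it was 0.22 without the first library of that dose, and none passed.

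Counted over the 10 members, few passed. Against C2, 0 members passed at 0.0005 μM, where 2.34% of all tested genes did, 0 at 0.005 μM (3.28% of all), 1 at 0.05 μM (8.32%) and 0 at 0.5 μM (6.32%). At an unadjusted p under 0.05 these counts were 2, 0, 4 and 2 of 10, beside 17%, 18.7%, 23.7% and 22.9% of all genes. Between C2 and C1, 0 members passed (0.325% of all), as between the 2 higher and the 2 lower doses (0.527%) and in the test of any difference among the 6 conditions (11%), where SNAI1 came to an edgeR adjusted p of 0.0540, SPARC to 0.0550 and FN1 to 0.0784. Unadjusted, 0, 1 and 3 members passed these comparisons, against 10%, 11.7% and 28% of all genes. The dose slope called 1 member (3.15% of all), treated against untreated 1 (24.5%), and 0.5 against 0.05 μM 0 (0% of all, with 1 member and 2.57% of all unadjusted). With DESeq2 the test of any difference called 3 members (17.6% of all genes), and each of the other comparisons with 0 calls had 0 there too. Without both C1 libraries in the fit, a choice made after seeing the data, the calls against C2 were 2, 0, 4 and 2. They were SNAI1 and FN1 at 0.0005 μM, these with SNAI2 and TCF4 at 0.05 μM, and SNAI1 and SPARC at 0.5 μM. The share of all genes called rose in that fit too, to 10.3%, 12.7%, 19.2% and 20%. The 4 doses share the C2 libraries, so their calls are not independent.

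The 2 libraries of a dose did not overlap with those of C2 for 6 members at 0.0005 μM, where 53% of all genes did not overlap, for 7 at 0.005 μM (62.1%), for 6 at 0.05 μM (52.9%) and for 9 at 0.5 μM (59%). For treated against untreated, 0 members had groups that did not overlap (13.4% of all genes). From the lowest to the highest dose, the members had median log2 differences from C2 of 0.13, -0.0077, 0.0064 and 0.0081, beside -0.011, 0.036, -0.011 and 0.036 over all tested genes. In the same order of dose, the medians of the 6 transcription factors were 0.10, 0.023, 0.16 and 0.11 and those of the 4 markers 0.15, -0.21, -0.031 and -0.26.

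Other lists of the pathway are given for the 8 treated against the 4 untreated libraries, where 24.5% of all tested genes were called, so a share near that is no result about a list. Of 15 tested further EMT transcription factors, 1 rose and 3 fell (26.7% called): SOX4 rose (log2 0.48, SE 0.14, 51.8 ± 13.6 CPM in untreated and 71.8 ± 8.11 in treated libraries, SD, n = 4 and 8), while SOX9 (-0.61), TCF3 (-0.46) and TCF12 (-0.34) fell. Of 24 tested cofactors and turnover genes of SNAIL and ZEB, 0 rose and 6 fell (25% called), among them LOXL2, a lysyl oxidase family member (log2 -0.69, SE 0.17), and the Polycomb genes SUZ12 (-0.44, SE 0.085) and EZH2 (-0.42, SE 0.090). Their medians were -0.13 and -0.15, against -0.011 over all genes. The edgeR adjusted p values of these named genes ran from 0.00163 for SUZ12 to 0.0414 for TCF3.

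Of 37 tested other mesenchymal and matrix genes, 5 rose and 5 fell (27% called). DDR2, a collagen receptor, rose from 1.16 ± 0.304 to 4.33 ± 0.944 CPM (log2 1.92, SE 0.21, edgeR adjusted p = 1.82e-05), and CTHRC1 and TAGLN rose by 0.54 and 0.50. CCN2 fell from 478 ± 186 to 252 ± 42.5 CPM (log2 -0.91, SE 0.18), with the receptor kinase AXL at -0.87 and CCN1 at -0.77. Of 24 tested epithelial genes 2 rose, MUC1 (log2 0.79, SE 0.19) and GRHL1 (0.60, SE 0.19), and 0 fell (8.33% called). Among 19 tested partners of the 4 markers, 2 rose and 4 fell (31.6% called): SDC4, a syndecan, rose by 0.72, and NES, an intermediate filament gene, fell by 0.79, COL4A2 by 0.69 and COL4A1 by 0.59. The medians of the 3 lists were -0.11, 0.039 and -0.092.

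**Figure D3:**
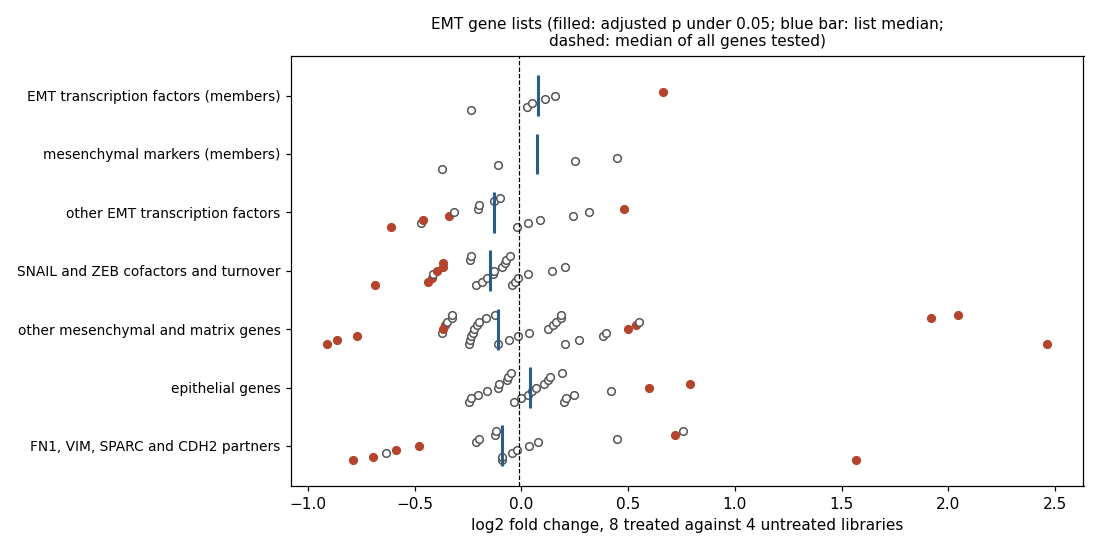
log2 fold change of treated against untreated libraries (x axis) for each tested gene of 7 lists (y axis), with filled points for an adjusted p under 0.05, a blue bar at the list median and a dashed line at the median of all tested genes (-0.011). SNAI1 is the filled point among the 6 member transcription factors, and the 4 member markers have 0. The other EMT transcription factors, the other mesenchymal genes and the partners have filled points on both sides of the line, the cofactors 6 on the lower side and the epithelial genes 2 on the higher side.

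The members varied together only in part over the 12 libraries. The highest correlation of log2 CPM was between VIM and SPARC (r = 0.838), followed by SNAI1 and FN1 (0.646), and the lowest was between SNAI1 and TCF4 (-0.693). These values are descriptions with no test, and the points share conditions. Among 11090 genes with a mean of at least 5 CPM, the profile most like that of SNAI1 was that of IER2 (r = 0.971, followed by RNF111 at 0.956 and BANP at 0.953). The one most like SPARC was JPT1 (0.973) and the one most like VIM was HERPUD2 (0.962). Those of FN1, ZEB2, TCF4, ZEB1 and SNAI2 were most like ADM2 (0.959), CHIC2 (0.971), BMPR1A (0.953), TPI1 (0.946) and NAIF1 (0.917). Each is the highest of 11090 correlations over 12 libraries, so its size says little about the pair.

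**Figure D4:**
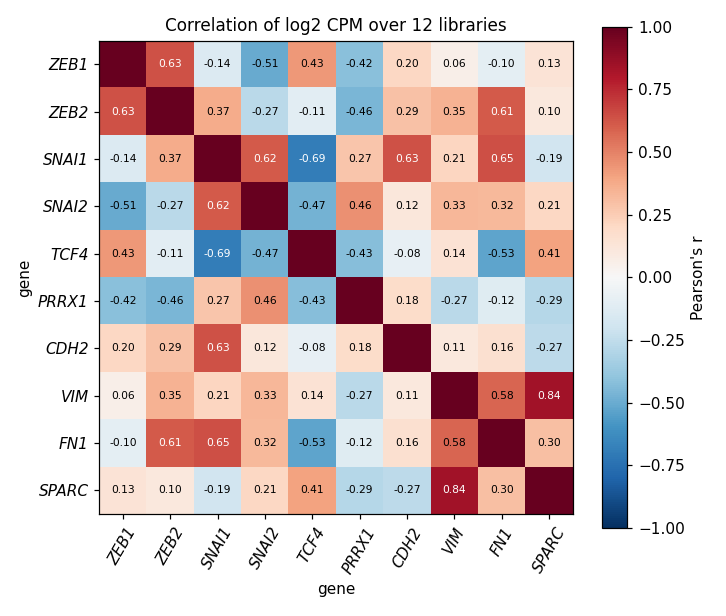
Pearson's r of log2 CPM over the 12 libraries for each pair of members (rows and columns), from -1 (blue) to 1 (red). VIM and SPARC have the highest value (0.838) and SNAI1 and TCF4 the lowest (-0.693).

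Markers of other cells were measured beside the members. The summed level of 10 fibroblast markers was 9.34 to 17.1 CPM in untreated and 13.2 to 21.9 in treated libraries, with 6 of the 10 under 1 CPM in every library, among them COL1A2, DCN, FAP and PDPN. COL1A1 lay between 4.80 and 9.85 CPM and PDGFRB between 3.61 and 9.15 over all libraries. Of 6 tested fibroblast markers 3 rose in treated against untreated libraries (50%, against 24.5% of all tested genes), among them PDGFRA (log2 2.74, SE 0.47), which reached 2.16 CPM, and COL3A1 (log2 2.04, SE 0.46), which reached 1.52 CPM. The sum of 7 endothelial and blood cell markers was 0.955 to 2.19 CPM in untreated and 3.35 to 4.42 in treated libraries, with 5 of 7 under 1 CPM throughout and HBB at no more than 1 read. Of its 5 tested markers 3 rose in the same comparison (60%). No marker of either list was at 0 in all libraries. The second sum did not overlap between the groups, and the part of either list in the values of the members was not tested.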

How the data were processed

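RNA was measured by paired-end sequencing in 12 libraries. The authors trimmed adapters with Trimmomatic 0.39, aligned reads to GRCh37 (hg19) with STAR 2.7.5, and counted uniquely aligned reads in exons, and the deposited values are these raw counts, neither normalized nor pooled. The annotation release and strand setting are not given in the sources used here. Columns not used numbered 0.

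From these counts, genes were filtered with filterByExpr (minimum count 10) on the groups of each fit, scaled by TMM and tested two-sided with the quasi-likelihood test of edgeR 4.0.16 (R 4.3.3, robust), in a model of the 6 conditions, a regression on log10 dose over the 8 treated libraries, and a fit of 8 treated against 4 untreated libraries. P-values were adjusted by Benjamini-Hochberg over all tested genes, and called under 0.05. All 10 members passed the filter in every fit. Residual degrees of freedom were 6 in the first and second fit and 10 in the third. log2 CPM used a prior count of 2. Gene positions and exon lengths are from GENCODE 44 on GRCh37. DESeq2 1.42.0, other scalings and filters, and fits leaving out libraries were alternatives. Scripts were tested on simulated data.

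The members and gene lists were chosen with earlier results of these data known. Named were all members and, of each other list, up to 3 rises and 3 falls among genes called in treated against untreated libraries with a mean of at least 1 CPM, and the gene most like each member with a mean of at least 5 CPM.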

Additional observations from a re-analysis of the deposited data

How the results depend on the processing

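The number of members called depended on the libraries in the fit. Leaving out 1 library at a time gave 0 to 2 calls at 0.0005 μM (0 in the full fit), 0 at 0.005 μM, 0 to 4 at 0.05 μM (1 in the full fit), 0 to 2 at 0.5 μM (0), 0 to 1 for C2 against C1 (0), 0 to 1 for the higher against the lower doses (0), 0 to 4 for any difference (0), 0 to 2 for the dose slope (1), 1 to 3 for treated against untreated (1) and 0 to 1 for 0.5 against 0.05 μM (0). The highest counts at 0.0005, 0.05 and 0.5 μM and for any difference came without a C1 library. Without both C1 libraries, chosen after seeing the data, the counts were 2 at 0.0005 μM, 4 at 0.05 μM, 2 at 0.5 μM, 1 for higher against lower doses and 1 for 0.5 against 0.05 μM, where 10.3%, 19.2%, 20%, 5.04% and 0.0279% of all genes were called. With only the samples of a comparison they were 2, 2 and 2 at 0.0005, 0.05 and 0.5 μM and 1 for 0.5 against 0.05 μM (all genes 12%, 12.6%, 11.4% and 0.0419%). With C1 and C2 together as control they were 2 at 0.05 and 2 at 0.5 μM (17.1% and 14.4%). With no filter beyond 1 count they were 1, 2 and 1 at 0.0005, 0.05 and 0.5 μM, 3 for any difference, 2 for the dose slope and 1 for 0.5 against 0.05 μM (3.03%, 5.65%, 5.74%, 14.6%, 3.03% and 0.0307%). With upper-quartile scaling they were 1 at 0.5 μM, 2 for any difference and 3 for treated against untreated (6.1%, 10.1% and 23%), with RLE scaling 1 for any difference and 2 for treated against untreated (11.3% and 25.3%), and with total counts only 0 for the dose slope and 2 for treated against untreated (2.12% and 21.3%). A mean of at least 1 CPM gave 1 for any difference (9.68%), DESeq2 gave 3 for any difference, 2 for the dose slope and 2 for treated against untreated (17.6%, 8.05% and 21.9%), and the 6-condition model gave 2 for treated against untreated (26.3%). The cause was not tested.

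The replicate block, with replicate number as a term, gave 3 calls for any difference (11.8% of all genes) and 0 for the dose slope (1.68% of all genes, SPARC, edgeR adjusted p = 0.0548), and changed no other count of members. The numbers did not pair the libraries: over 15 pairs of conditions the correlation of the differences between replicates ran from -0.579 to 0.573, with 7 over 0.1 and 6 under -0.1, so not every library went with its own number.

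Of 2061 member values under alternatives, 1913 kept their direction and side of the threshold, 58 gained a call, 15 lost one, and 75 changed sign without a call in either fit. SNAI1 in treated against untreated libraries kept its call in every alternative, at log2 0.51 to 0.80. Total counts only moved the median of all genes by up to 0.168 on the log2 scale (C2 against C1) and upper-quartile scaling by up to 0.125 (treated against untreated), and the share of calls that were higher in treated libraries from 53% to 75.8% and 75.4%. Genes called over all genes numbered 459 to 2624 at 0.0005 μM over the alternatives other than leaving out 1 library (592 in the full fit), 353 to 3401 at 0.005 μM (827), 1122 to 4817 at 0.05 μM (2100), 820 to 5033 at 0.5 μM (1596), 0 to 390 for C2 against C1 (82), 102 to 1266 for higher against lower doses (133), 1530 to 7149 for any difference (2787), 421 to 1664 for the dose slope (789), 3296 to 7248 for treated against untreated (5786) and 0 to 15 for 0.5 against 0.05 μM (0). Leaving out 1 library moved the counts further only in some comparisons. At each dose the fewest genes were called without the first C2 library, below the range just given, and the most without 1 C1 library. For treated against untreated and for 0.5 against 0.05 μM, leaving out 1 library gave a narrower range than the other alternatives. The counts of PRRX1 and CDH2 limit what could be seen of them.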
